A study of Mus musculus with 2 samples.

Results

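Glycolysis genes are described in single cells of mouse small intestinal organoids, cultured epithelium that forms crypt-like and villus-like domains. They are Slc2a1, Hk1, Hk2, Pfkp, Aldoa, Tpi1, Pgk1, Pkm, Ldha and Pdk1, 10 of the 31053 genes in the deposited matrix. They were picked by symbol, with earlier results of these data known. The symbol Aldoa stands on 2 rows, so the 10 symbols cover 11 rows. The second Aldoa row held 2 UMIs in all kept cells and is left out. The labels describe a control group and a melatonin-treated group, each with cells of 3 organoid lines pooled on culture day 3 into 1 library. No genotype, strain, sex or dose is stated in the labels' group fields, and the labels give no limit on the lines beyond their pooling.

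The deposited files of the 2 samples were byte for byte the same (3 of 3 files), so they were handled as 1 sample. Barcodes carry the suffix 1 or 2, called set 1 and set 2 here. Nothing read here ties a suffix to a treatment, so no comparison of control with melatonin was made. Ratios are set 2 over set 1 on the scale of CPM + 1, a direction without meaning for the treatment. A barcode was kept as a cell if it had 500 genes or more, 1000 or more UMIs (unique molecular identifiers, counts of captured RNA molecules) and no more than 20% mitochondrial UMIs, which left 2300 in set 1 and 1766 in set 2, of 21806. The median depth was 29872 UMIs in set 1 and 28759 in set 2, and 0 barcode sequences were kept with both suffixes. Cells are not replicates, so there is no replicate check and no p-value. Brackets hold exact Poisson 95% intervals for levels and exact Clopper-Pearson intervals for shares, and both cover counting error only. A gene is called higher or lower where the ratio is at least 1.5-fold and the intervals of both sides do not overlap, among genes with a mean of at least 5 CPM (a gene's share of the UMIs, scaled to 1e6). Calls describe these barcode pools, and fewer molecules per cell of a type cannot be told apart from a shift between subtypes within it.

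Glycolysis splits glucose into pyruvate. Sugar enters through a transporter and is trapped by a hexokinase, phosphofructokinase commits it, and aldolase, triose phosphate isomerase and phosphoglycerate kinase act before pyruvate kinase forms pyruvate. Lactate dehydrogenase turns pyruvate to lactate, and pyruvate dehydrogenase kinases restrain its conversion to acetyl-CoA by inhibiting pyruvate dehydrogenase. Many of these genes are known targets of the hypoxia-inducible factor HIF, and in the gut, enterocytes use their own isozymes for absorbed sugar while proliferating crypt cells use the widely expressed forms.

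Cells were sorted into classes by marker UMIs per 10000, with thresholds set after the values were seen. Enteroendocrine cells, the hormone-secreting cells of the gut, numbered 254 in set 1 and 271 in set 2. Chgb and Tph1 were among the genes with the 10 largest folds there in both sets. The leading genes differed in part, with Pappa2, Scn3a, Pak3, Gcg and Hmgn3 in set 1 only. Reg4, Afp, Chga, Ucn3 and Tpbg were among them in set 2 only. Absorptive enterocytes numbered 101 and 168. Their leading genes were Lct, Leap2 and G6pc in both sets, with Apoa1 as the only marker among the top 10 in set 1 and none in set 2. Cells above the G2 and mitosis level numbered 1253 and 578, and those above the S phase level 263 and 306. The class above the crypt stem level, 192 and 249 cells, was led by genes such as Gm26917 and Nupr1, with Olfm4 as a stem marker in set 1 only, and is called the crypt stem gate by its rule. The 138 and 94 cells past no gate were led by Gip and Gast in set 1 and by Sst in set 2, hormone genes that were not on the enteroendocrine marker list. The goblet or Paneth class (32 and 15 cells) and the revival-like class (15 and 40 cells) were too small for ratios. The revival-like class was led by Anxa1, S100a6 and Il1rn along with Ly6d and Crct1, genes also known from squamous epithelium. Cells past 2 or more of the differentiated gates, 52 and 45, were kept out of these classes. The median of the summed immune, mesenchymal, endothelial and tuft markers was 0 in each class.

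Promoter sequences are shown for 4 members because Ldha, Pgk1 and Tpi1 were lower in set 2 enteroendocrine cells while Hk2 was higher there. Each is the 250 bases before the first start that RefSeq lists (build GRCm38.p6), 5′ to 3′ on the gene's strand. Capitals mark the HIF core motif, searched as ACGTG or GCGTG on both strands, so that CACGT and CACGC are reverse-strand matches and CACGTG counts on both strands. The build of the deposited counts is not given in the sources used here, and no coordinate was joined to the counts.
Ldha (chr7:46845554-46845803, plus strand): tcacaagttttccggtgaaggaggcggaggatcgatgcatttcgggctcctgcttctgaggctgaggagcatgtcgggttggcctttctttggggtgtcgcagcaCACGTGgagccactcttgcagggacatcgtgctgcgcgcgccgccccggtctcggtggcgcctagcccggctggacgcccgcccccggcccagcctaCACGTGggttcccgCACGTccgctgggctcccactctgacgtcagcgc
Pgk1 (chrX:106186850-106187099, plus strand): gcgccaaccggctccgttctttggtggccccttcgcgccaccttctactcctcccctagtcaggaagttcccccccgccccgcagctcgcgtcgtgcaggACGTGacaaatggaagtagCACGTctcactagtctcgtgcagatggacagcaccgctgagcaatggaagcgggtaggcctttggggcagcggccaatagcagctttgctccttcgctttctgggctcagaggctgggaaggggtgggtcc
Tpi1 (chr6:124814159-124814408, minus strand): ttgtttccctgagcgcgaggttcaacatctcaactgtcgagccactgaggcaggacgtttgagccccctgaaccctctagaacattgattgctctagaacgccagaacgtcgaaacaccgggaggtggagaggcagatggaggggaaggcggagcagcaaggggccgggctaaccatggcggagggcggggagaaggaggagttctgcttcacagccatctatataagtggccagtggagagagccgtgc
Hk2 (chr6:82774455-82774704, minus strand): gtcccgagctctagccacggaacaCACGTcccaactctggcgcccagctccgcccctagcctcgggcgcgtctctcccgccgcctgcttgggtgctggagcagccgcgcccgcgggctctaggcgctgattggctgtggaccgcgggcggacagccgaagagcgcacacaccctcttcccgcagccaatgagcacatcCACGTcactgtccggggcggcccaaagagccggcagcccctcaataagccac
Counting the last base as -1, the Ldha window held 5 matches to ACGTG, which begin at -145, -144, -48, -47 and -34. Pgk1 held 2, beginning at -150 and -131, and Hk2 held 2, beginning at -226 and -52. Tpi1 held neither motif in this window. At the first listed start, the windows of 6 of the 10 members held a motif and those of 4 held ACGTG. Hk1, Aldoa and Pkm held none there but did before a later listed start, so that over all 16 starts 9 members held a motif, Tpi1 being the exception, and 6 held ACGTG. Of 27025 genes in the same table, 41.5% held a motif and 18.5% held ACGTG before at least 1 listed start, and the members list more starts per gene than these do. Of the 32851 promoter windows of the same length, 38.6% held either motif, 16.6% held ACGTG and 6.58% held 3 or more matches, as the first windows of Ldha and Pfkp did. A match is a run of letters and not a shown binding site, and whether matches go with the set contrast was not tested.

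Over all kept cells the 10 members made up 0.460% of UMIs in set 1 and 0.414% in set 2. Hk2, the inducible hexokinase, measured 33.4 CPM (32.0 to 34.9) in cells of set 1. In those of set 2 it measured 54.4 CPM (52.4 to 56.5), a log2 ratio of 0.69. It was the only member called, 1 of 9 tested, and 2.61% of 9258 genes were called higher and 1.12% lower. The call was lost with a pseudocount of 10 CPM (log2 ratio 0.57). Hk1, at 4.75 and 4.50 CPM, did not pass the level filter. Aldoa measured 893 and 874 CPM, Pgk1 842 and 755, Pkm 884 and 809, Tpi1 684 and 585, and Ldha 1118 and 928. The mix of classes behind these pooled levels differed between the sets, with 54.5% of set 1 and 32.7% of set 2 in the G2 and mitosis class. The enteroendocrine class held 11.0% of set 1 and 15.3% of set 2. Hk2 measured 26.0 and 35.2 CPM in the cells outside that class.

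**Figure D1:**
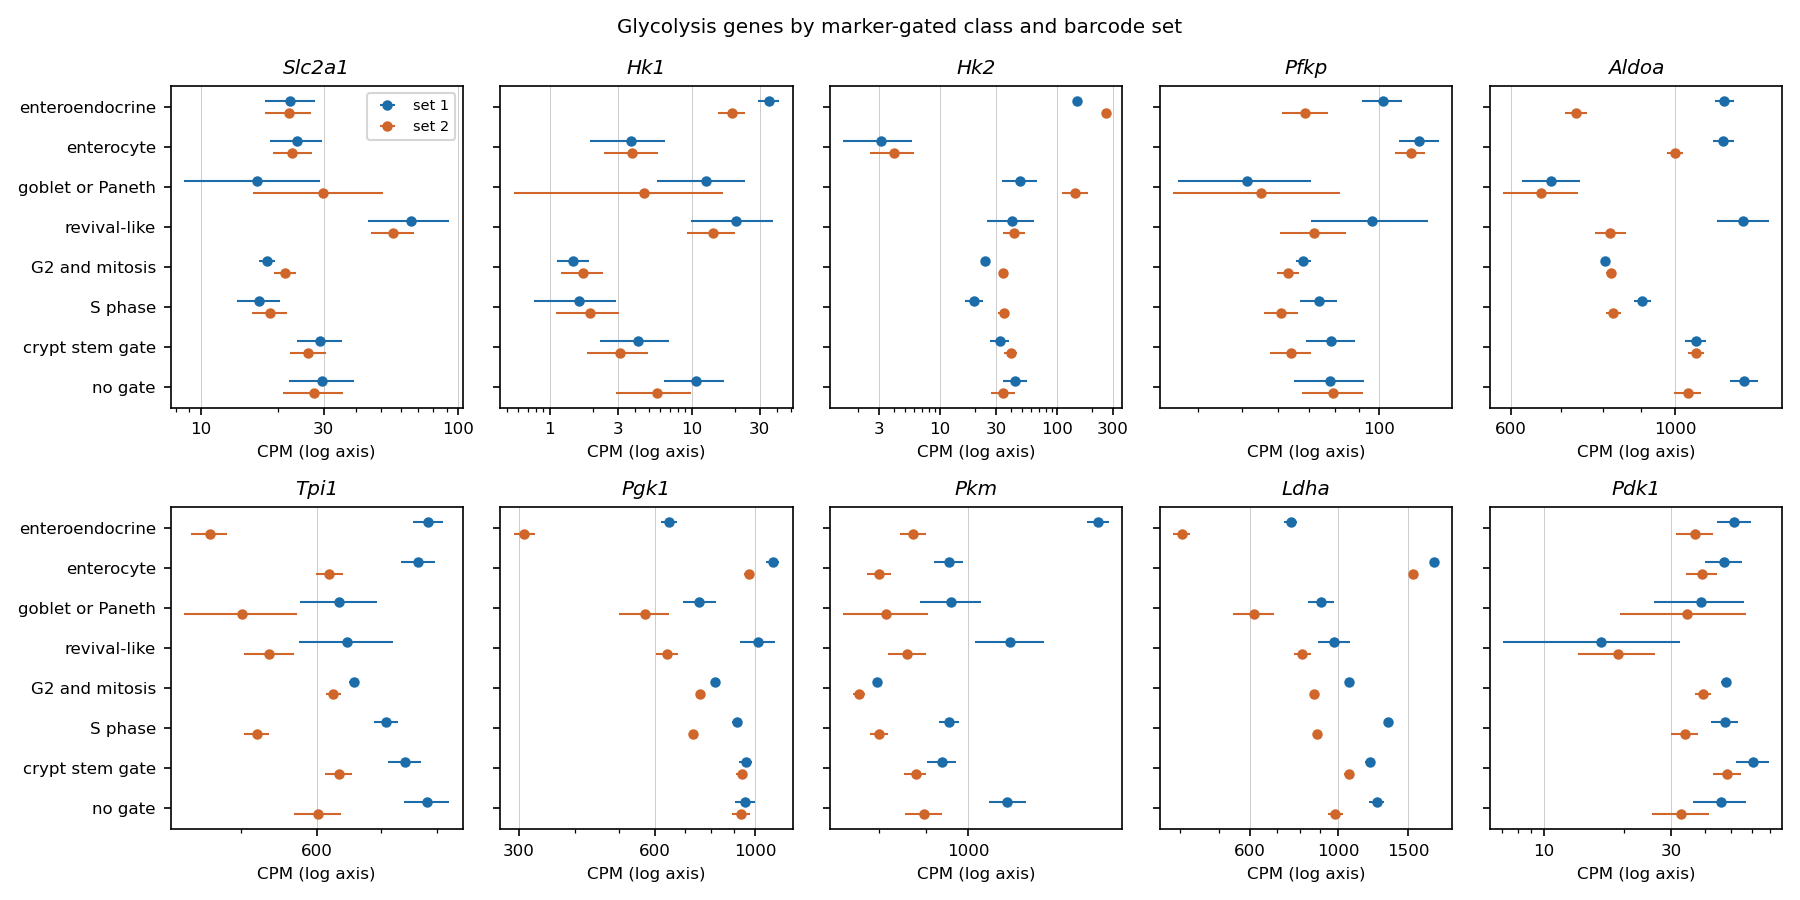
Level of each gene (CPM, log axis, a separate range for each gene) in 8 marker-gated classes, with set 1 in blue and set 2 in orange. Points are summed UMIs scaled to CPM and bars are exact Poisson 95% intervals. Hk2 is low in enterocytes (3.10 and 3.99 CPM) and high in enteroendocrine cells, where Pgk1 and Ldha are at their lowest in set 2.

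Slc2a1 encodes the widely expressed glucose transporter GLUT1. Its highest level was that of the revival-like cells: set 1 gave 65.4 CPM (44.8 to 92.4), and set 2 gave 55.8 CPM (46.0 to 67.2). The top 3 cells gave 46.9% of these UMIs among the 15 cells of set 1 and 43.8% among the 40 of set 2, and the median cell had 0.523 and 0.334 UMIs per 10000. In the other classes it lay between 16.6 CPM (8.60 to 29.1, goblet or Paneth, set 1) and 29.9 CPM (15.9 to 51.0, the same class in set 2). The revival-like intervals overlapped that of the goblet or Paneth cells of set 2 and of no other class. Enteroendocrine cells held 22.3 CPM in set 1 and 22.0 in set 2, and enterocytes 23.6 and 22.7, so these 4 values did not differ beyond counting error. The gene's share of its transporter family differed far more than its level. Slc2a1 gave 94.1% (80.3 to 99.3) and 89.6% (82.9 to 94.3) of the UMIs of Slc2a1, Slc2a2, Slc2a3 and Slc2a5 in the revival-like cells, and 69.9% and 80.6% in G2 and mitosis. In enterocytes it gave 4.06% (3.21 to 5.06) and 4.40% (3.69 to 5.20). There the basolateral sugar transporter Slc2a2 held 274 and 278 CPM and the fructose transporter Slc2a5 283 and 216 CPM. UMIs are counted near the 3′ end and are not divided by length, so shares within a family are shares of captured molecules.

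The hexokinases separated the classes most sharply. In enteroendocrine cells, Hk2 measured 148 CPM (136 to 161) for set 1 while set 2 gave 262 CPM (247 to 278). All remaining cells together held 26.0 and 35.2 CPM, 5.52-fold and 7.26-fold less. At the other end, enterocytes held 3.10 CPM (1.49 to 5.70) and 3.99 CPM (2.53 to 5.99). The enterocyte log2 ratio to remaining cells was -3.14 in set 1 and -3.63 in set 2. Over the alternatives it lay between -4.04 and -1.35 in set 1, the weakest with a mitochondrial limit of 10%, and between -4.05 and -2.34 in set 2. Levels this low can also come from free RNA, whose part was not tested. G2 and mitosis (24.2 and 34.3 CPM), S phase (19.5 and 34.8 CPM), the crypt stem gate (32.3 and 40.2 CPM) and the revival-like cells (40.9 and 42.9 CPM) lay between, with several overlapping intervals among them in each set. The goblet or Paneth cells gave 48.5 CPM (33.8 to 67.5) for set 1, while set 2 gave 142 CPM (109 to 183). The top 3 cells gave 42.9% of these UMIs among 32 cells and 46.8% among 15.

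Hk1, the constitutive hexokinase, was also highest in enteroendocrine cells. Set 1 gave 34.8 CPM (29.1 to 41.3) and set 2 gave 19.2 CPM (15.3 to 23.8). The revival-like cells, at 20.4 CPM (9.81 to 37.6) and 14.0 CPM (9.27 to 20.2) from 10 and 28 UMIs, overlapped them in both sets, and so did the goblet or Paneth cells of set 2 (0.556 to 16.6). All remaining cells together held 2.80 and 3.14 CPM. In the dividing classes Hk1 stayed between 1.46 and 1.91 CPM. So both hexokinases were called higher in enteroendocrine cells than in remaining cells in each set. Many genes were called in that comparison, 45.6% of those tested as higher for set 1 and 40.1% for set 2. The median gene had a log2 ratio of 0.47 and 0.34. Relative to that median, Hk1 stood at 2.77 and 1.95 and Hk2 at 2.0 and 2.52. With a pseudocount of 10 CPM the uncentred ratio of Hk1 fell to 1.81 from 3.24 in set 1 and to 1.15 from 2.29 in set 2. Pkm, at 0.70, was the third member called higher in set 1, and it stood at 0.23 after centring.

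Enterocytes carried another hexokinase. Hkdc1, a hexokinase-like enzyme of the same family, measured 73.8 CPM (64.7 to 83.8) and 99.5 CPM (91.5 to 108) there. It gave 91.5% (87.5 to 94.6) and 92.7% (90.4 to 94.6) of the summed UMIs of Hk1, Hk2, Hk3 and Hkdc1, and Hk2 gave 3.85% and 3.72%. In enteroendocrine cells Hk2 gave 77.5% (74.3 to 80.6) of that sum in set 1 and 91.3% (89.6 to 92.8) in set 2.

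Pfkp, the platelet-type phosphofructokinase, was highest in enterocytes, where set 1 gave 122 CPM (110.1 to 135) and set 2 gave 117 CPM (108 to 126). Its enterocyte level was called higher than that of remaining cells in both sets, with log2 ratios of 0.74 and 0.85. In set 1 it was not called with gates halved (0.55) or scaled without mitochondrial and ribosomal protein UMIs (0.53). Enteroendocrine cells of set 1 held 102 CPM (91.6 to 112), which, like the 96.1 CPM (70.6 to 128) of the revival-like cells, overlapped the enterocytes of set 1, and those of set 2 held 68.7 CPM (61.1 to 77.0). Pfkp gave 50.6% and 56.1% of phosphofructokinase UMIs in enterocytes and 32.0% and 29.9% in enteroendocrine cells, where the liver-type Pfkl gave 63.4% and 64.5%.

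Aldoa, the aldolase of muscle and most tissues, spanned a narrow range of levels, from 659 CPM (585 to 739.9) in goblet or Paneth cells of set 2 to 1240.4 CPM (1188 to 1295) in the cells past no gate of set 1. That interval overlapped those of the enteroendocrine, enterocyte and revival-like cells of set 1. In G2 and mitosis its level was 805 and 819 CPM.

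Both ends of the range of Tpi1, which interconverts the triose phosphates, lay in enteroendocrine cells. These held 783 CPM (755 to 812) in set 1, where enterocytes (764 CPM), the crypt stem gate (740.4 CPM) and the cells past no gate (780.2 CPM) overlapped them, and 464 CPM (444 to 484) in set 2, where goblet or Paneth cells (501 CPM, 436 to 572) did. Pgk1, the first ATP-forming enzyme, was highest in enterocytes, where set 1 gave 1095 CPM (1059 to 1132) and set 2 gave 970.4 CPM (945 to 996). In set 1 its interval there overlapped that of the revival-like cells, 1014 CPM (927 to 1107). In set 2 it overlapped those of the crypt stem gate (934 CPM) and of the cells past no gate (931 CPM). Its lowest class level was in enteroendocrine cells, at 645 and 308 CPM.

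Ldha, which makes lactate from pyruvate, had its highest level in enterocytes of both sets, 1749 CPM (1703 to 1795) and 1540.0 CPM (1508 to 1572), and its lowest in enteroendocrine cells, 759 CPM (731 to 787) and 403 CPM (384 to 422). No other class overlapped these in the same set. Compared with remaining cells, enterocytes were called higher for Ldha in both sets (log2 ratios of 0.69 and 0.86) and enteroendocrine cells lower (-0.59 and -1.28). The set 1 enteroendocrine value lies close to the 1.5-fold limit and lost its call under 6 alternatives, such as no mitochondrial limit (-0.34). The set 1 enterocyte call was lost with gates halved (0.54) and when scaled without mitochondrial and ribosomal protein UMIs (0.48). Pgk1 was called lower in enteroendocrine cells of set 2 (-1.37) but not of set 1 (-0.41). The shares of all genes called were 16.8% higher for enterocytes and 17.7% lower for enteroendocrine cells in set 1, and 16.3% and 19.6% in set 2. Ldha gave at least 99.2% of the UMIs of Ldha and Ldhb in the enteroendocrine, enterocyte, revival-like and G2 and mitosis classes.

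Pkm, pyruvate kinase, ran the other way from Ldha in set 1, where enteroendocrine cells held its highest level, 1381 CPM (1343 to 1419) against 953 CPM (919 to 987) in enterocytes. In set 2 these were 871 CPM (843 to 899) and 801 CPM (778 to 824). The muscle-type and embryonic splice forms of Pkm cannot be told apart in 3′ counts. Pklr, the liver-type kinase, gave 20.3% and 17.6% of pyruvate kinase UMIs in enterocytes and 5.41% and 4.03% in enteroendocrine cells. Pdk1, a kinase that switches off pyruvate dehydrogenase, was lowest in the revival-like cells. Set 1 gave 16.4 CPM (7.06 to 32.2) and set 2 gave 18.9 CPM (13.4 to 26.0), from 8 and 38 UMIs. Elsewhere it lay between 32.7 and 60.4 CPM, and the revival-like interval overlapped that of the goblet or Paneth cells in both sets (25.8 to 56.1 and 19.3 to 56.8) and that of the cells past no gate in set 2 (25.5 to 41.4). It gave 67.4% and 69.7% of the UMIs of the 4 Pdk genes in G2 and mitosis, but 22.9% and 21.1% in enteroendocrine cells, where Pdk3 held 157 and 124 CPM.

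**Figure D2:**
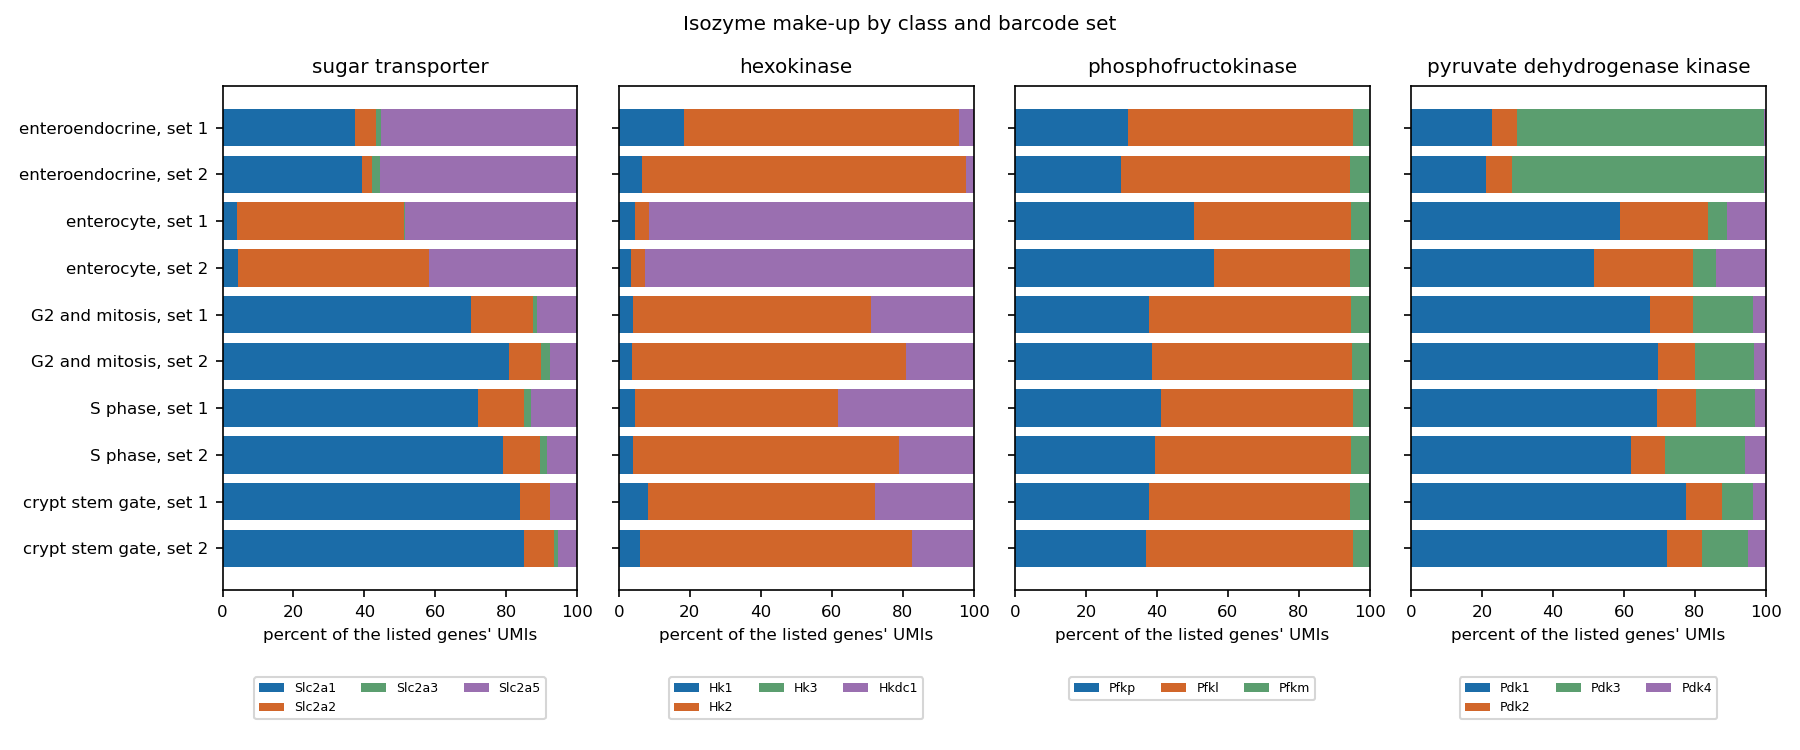
Share of UMIs (percent, axis from 0) that each gene gave of the summed UMIs of the genes in its panel's legend, in 5 classes and 2 sets, as stacked bars without intervals. In enterocytes Hkdc1 gave 91.5% and 92.7% and Pfkp 50.6% and 56.1%, the highest shares of each among the classes drawn. Slc2a1 had its lowest share there, at 4.06% and 4.40%. In enteroendocrine cells Pdk3 gave 69.5% and 71.1%.

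The enteroendocrine class showed the widest contrast between the sets. Of 10 members, 6 were called lower in set 2 (Hk1, Aldoa, Tpi1, Pgk1, Pkm and Ldha) and 1 higher (Hk2). The shares among 9943 genes were 3.38% lower and 1.18% higher, and the median log2 ratio was -0.67 for the members and -0.07 for all genes. Together the members summed to 5092 CPM (5020.1 to 5165) in these cells of set 1, as against 3189 CPM (3136 to 3243) for set 2. Pgk1 had the widest gap, with 645 CPM (619.9 to 672) for set 1, while set 2 at 308 CPM (292 to 325) was 2.09-fold lower. Ldha, with 759 and 403 CPM, was 1.88-fold lower, and Tpi1, with 783 CPM (755 to 812) and 464 CPM (444 to 484), was 1.69-fold lower. Aldoa went from 1167 CPM (1132 to 1202) to 735 CPM (709 to 761), and Pkm from 1381 to 871 CPM. None of these pairs of intervals overlapped.

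Hk2 went the opposite way, 1.77-fold higher in set 2, while Hk1 was 1.77-fold lower. Pfkp (log2 ratio -0.56), Pdk1 (-0.48) and Slc2a1 (-0.02) were not called. The gap was not carried by a few cells for Hk2, of whose UMIs the top 3 cells gave 5.94% and 5.74%. For Pgk1 the top 3 cells gave 4.82% in set 1 and 9.08% in set 2. Per cell, the median of Pgk1 was 5.57 UMIs per 10000 in set 1 and 1.94 in set 2, that of Ldha 6.43 and 2.51, and that of Hk2 1.20 and 2.22. Depth and mitochondrial share of the class differed little, with medians of 14270 and 14809 UMIs and of 7.18% and 6.74%. The median summed enteroendocrine markers were 554 and 493 per 10000, and the median summed enterocyte markers 6.25 and 4.26. Those of Paneth cells were 1.20 and 0.511, and those of G2 and mitosis 0.924 and 0.466. Medians for goblet (5.22 and 4.72), crypt stem (1.24 and 1.33) and S phase markers (0.555 and 0.554) lay closer together. The leading genes of the class also differed in part. The part of these differences in the result was not tested.

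**Figure D3:**
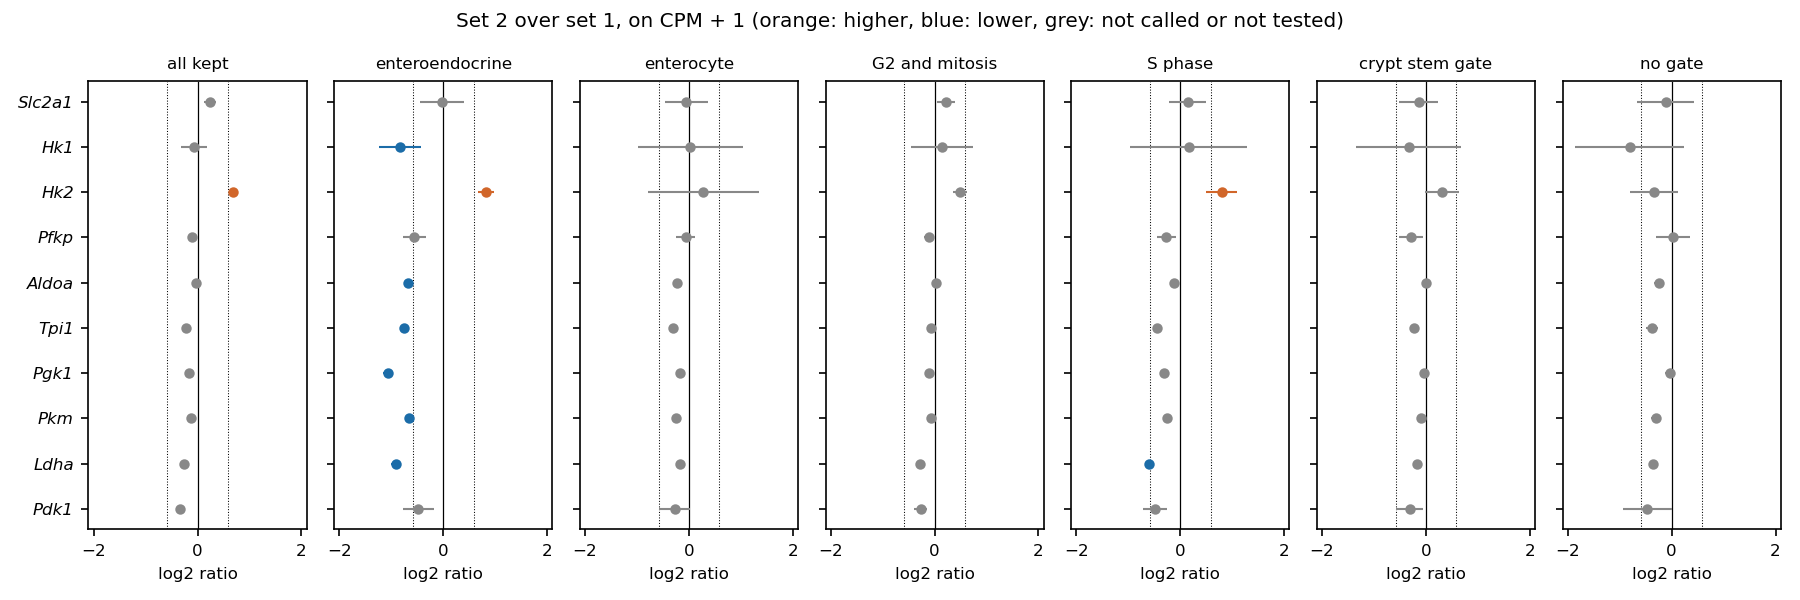
Log2 ratio of set 2 over set 1 (CPM + 1) for each gene, in all kept cells and 6 classes; bars are approximate 95% counting intervals and dotted lines mark 1.5-fold. In the enteroendocrine panel 6 genes lie to the left of the line and Hk2 to the right, and the enterocyte, G2 and mitosis, crypt stem gate and no gate panels hold no called gene.

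Enteroendocrine cells were then divided by Neurog3, the factor of endocrine progenitors, and Tph1, the serotonin-synthesis enzyme of enterochromaffin cells, a split chosen after the data were seen. The Neurog3 cells numbered 96 in set 1 and 64 in set 2, the Tph1 cells 89 and 103, and the others 69 and 104. Aldoa, Pgk1, Pkm and Ldha were called lower in set 2 in each of the 3 subsets. Pfkp was called lower in Neurog3 cells (log2 ratio -0.88) and Tph1 cells (-0.70) but not in the others (-0.35). Ldha measured 677 CPM (633 to 723) and 296 CPM (259 to 335) in Neurog3 cells, 994 and 616 CPM in Tph1 cells, and 595 and 265 CPM in the others. Pgk1 measured 639 and 244 CPM in Neurog3 cells and 786 and 414 CPM in Tph1 cells, and its log2 ratio in the others was -1.03. Tph1 cells thus held the highest Ldha of the 3 subsets in both sets. Members called in either direction numbered 6, 7 and 6, and those called lower 6, 6 and 5. Of all genes tested, 2.60%, 2.98% and 4.54% were called in these subsets.

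Each hexokinase was called in some of the subsets. Hk2 measured 151 CPM (130.5 to 174) and 301 CPM (275 to 329) in Tph1 cells and 177 and 277 CPM in the others, called higher in both. In Neurog3 cells it measured 119 CPM (101 to 139) and 151 CPM (125 to 180.0), with overlapping intervals and no call. Hk1 was called lower in Tph1 cells alone, from 56.7 CPM (44.3 to 71.4) to 22.8 CPM (16.1 to 31.4). In Neurog3 cells Hk1 measured 34.2 and 24.5 CPM, and in the others 11.9 and 13.8 CPM. Differences between subsets in these ratios were not tested.

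**Figure D4:**
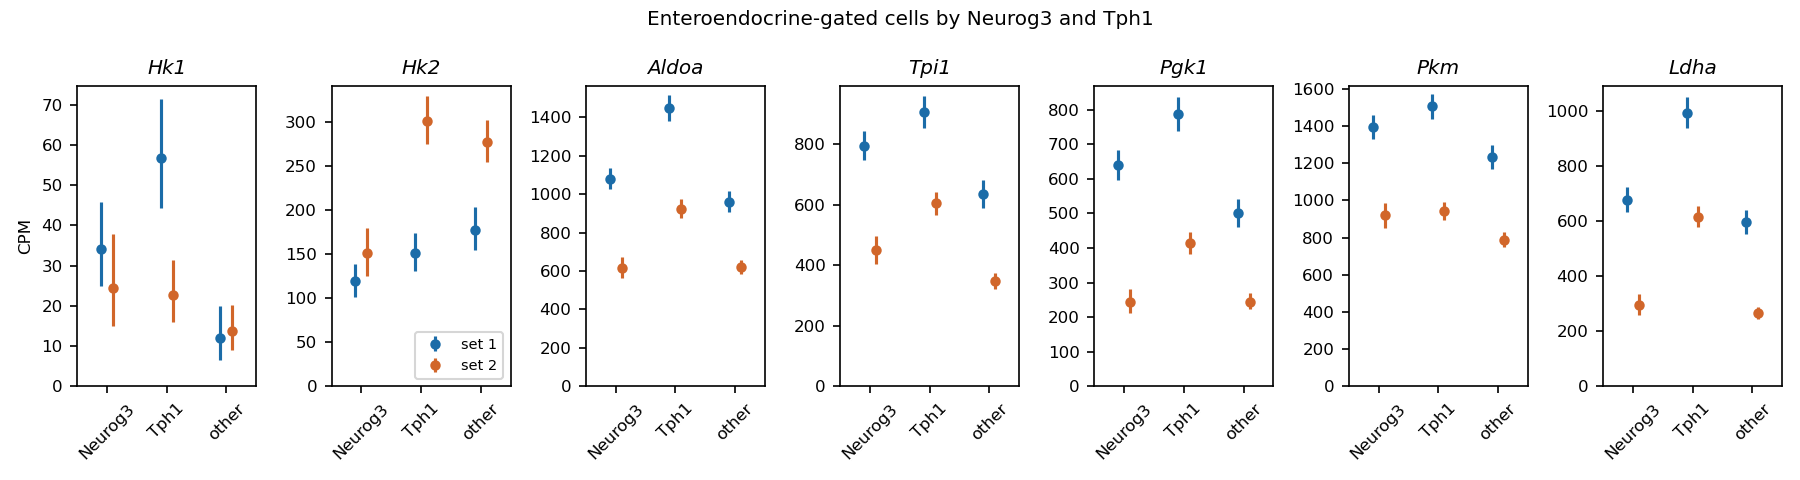
Level (CPM, axis from 0) of 7 genes in Neurog3, Tph1 and other enteroendocrine cells, with set 1 in blue, set 2 in orange and exact Poisson 95% intervals. Aldoa, Pgk1, Pkm and Ldha are lower in set 2 in each subset, Tpi1 has a log2 ratio of -0.58 in Tph1 cells, just short of a call, and Hk2 is higher there in Tph1 and other cells.

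Other genes of the pathway, from lists chosen with earlier results known, were compared in the same enteroendocrine cells. Of 26 other glycolysis genes, 18 were tested, 7 were called lower in set 2 and 0 higher, with a median log2 ratio of -0.49. Over all genes tested there, 3.38% were called lower and 1.18% higher, with a median of -0.07, and the counts of the lists that follow stand beside the same shares. Gapdh, which oxidises glyceraldehyde phosphate, measured 1635 CPM in set 1 and 1003 CPM in set 2, and Eno1, the main enolase, 197 and 103 CPM. Gpi1, Aldoc, Pgam1, Pklr and the lactate exporter Slc16a3 were the others. Of 18 genes of HIF itself and hypoxia targets, 17 were tested and 5 were called lower: Car9, Egln3, Bnip3, Ankrd37 and Ero1l. Their median log2 ratio was -0.40. Car9, a cell-surface carbonic anhydrase, measured 44.7 and 9.95 CPM, a log2 ratio of -2.06, and Hif1a, the oxygen-regulated subunit whose control is mainly by protein breakdown, 117 and 127 CPM. For pyruvate entry 0 of 11 genes were called and for the pentose phosphate branch 0 of 7, with medians of -0.16 and -0.15. Of 5 tested MYC-related genes, Mxi1 alone was called, as lower.

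Outside enteroendocrine cells few members were called between the sets. In S phase, Hk2 was higher in set 2 (19.5 CPM, 16.2 to 23.3, and 34.8 CPM, 31.0 to 38.9) and Ldha lower (1337 and 883 CPM), just past the 1.5-fold limit at 1.51-fold. There 2.88% of genes were called higher and 2.01% lower. In G2 and mitosis the members called were 0 of 9, with 1.42% of genes higher and 1.22% lower, and Hk2 stood at a log2 ratio of 0.49 and Ldha at -0.29. Enterocytes had 0 of 8 called, with 1.01% and 2.42% of genes called. Ldha stood there at -0.18 and Pgk1 at -0.17. The crypt stem gate had 0 of 9 called (1.78% and 2.41% of genes) and the cells past no gate 0 of 10 (1.37% and 2.76%). Median depth in these last 2 classes was 13191 and 7182.5 UMIs in set 1 against 24517 and 25850.5 in set 2, and its part in the values was not tested. Listed genes were called between the sets outside the enteroendocrine gate too. In the cells past no gate, 6 of 18 other glycolysis genes tested were lower (Gpi1, Aldoc, Pklr, Slc2a5, Slc5a1 and Slc16a3) and 0 higher, with a median of -0.32. Of 18 genes of HIF and hypoxia targets there, 4 were lower, with a median of -0.33. These cells were led by hormone genes that differed between the sets, so they may include endocrine cells that the markers missed. In the crypt stem gate 3 of 16 other glycolysis genes were lower (Aldoc, Pklr and Slc16a3). The median of all genes was 0.02 and 0.00 in these classes. S phase had 2 of 16 lower (Pklr and Slc16a3) and G2 and mitosis 1 of 16 (Pklr), with 0 higher in these as in the crypt stem gate. In enterocytes 2 of 18 were higher (Pfkfb3 and Tigar) and 1 lower (Aldoc). Pentose phosphate genes were called higher only. They were G6pdx and Pgd (2 of 7) in G2 and mitosis and in S phase, G6pdx (1 of 7) in enterocytes and Pgd (1 of 7) past no gate. Of the gluconeogenesis genes, Fbp1 was lower in G2 and mitosis, S phase and the crypt stem gate (1 of 3 tested in each). In enterocytes Fbp1 and Pck1 were lower (2 of 6). Whether the set ratios differ between classes was not tested.

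Between classes, enterocytes had higher levels of many other glycolysis genes. Of 18 other glycolysis genes tested, 11 were called higher than in remaining cells and 0 lower in each set, with medians of 0.96 and 1.21 against -0.22 and -0.27 for all genes. Those called in both sets include the membrane transporters Slc2a2, Slc2a5, Slc5a1 and Slc16a3. The others were Gpi1, Aldoc, Gapdh, Pklr, Hkdc1 and Pfkfb4, with Bpgm in set 1 only and Pfkfb3 in set 2 only. Gapdh stood at 4174 and 3791 CPM in enterocytes. Of the 9 members tested, Pfkp and Ldha were called higher and Hk2 lower in both sets, where 16.8% and 16.3% of all genes were called higher and 30.8% and 34.3% lower. Median mitochondrial share in enterocytes was 14.3% in each set, above the 9.29% and 9.08% of all kept cells. In G2 and mitosis, Hk2 was called lower than in remaining cells in both sets (-1.07 and -0.97) and Hk1 in set 1 (-2.32), with 18.0% and 13.2% of genes called lower, and 0 members higher where 4.15% and 5.44% of genes were. S phase cells had Hk2 called lower too (-0.81 and -0.74, with 9.11% and 11.6% of genes) and none called higher (3.02% and 4.09% of genes), although the remaining cells in each of these comparisons include the enteroendocrine cells. In the crypt stem gate 0 members were called in either set, where 1.04% and 0.473% of genes were called higher and 5.99% and 9.88% lower. The cells past no gate had Hk1 higher in set 1 (1.07) and Hk2 lower in set 2 (-0.66). That Hk1 level rests on 18 UMIs, of which the top 3 cells gave 44.4%. Of all genes, 2.74% and 0.758% were called higher there and 10.3% and 13.4% lower.

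Members did not vary as a block across classes. Over the 12 class-by-set units with at least 50 cells, the Pearson correlation of log2(CPM + 1) between Pgk1 and Ldha was 0.94 and that between Aldoa and Tpi1 0.78. Hk2 ran opposite to Ldha (-0.89) and to Pgk1 (-0.77). Correlation with the mean standardised level of all 10, which includes the member itself, was 0.95 for Aldoa, 0.87 for Tpi1, 0.79 for Pkm and -0.14 for Hk2. Among 2419 genes with a mean of at least 50 CPM, those most like that mean were Gadd45b (0.83), Grhpr (0.81), Ero1l (0.80), Ndufb8 (0.77) and Pgam1 (0.76), the last a glycolytic mutase, and the median gene had -0.05. The 12 units come from 2 barcode pools and share their library's depth, so these values are descriptions.

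Within enteroendocrine cells the middle and lower steps also varied together from cell to cell. In 254 cells of set 1 the correlation with the sum of the other 9 members was 0.77 for Aldoa, 0.77 for Pgk1, 0.74 for Ldha, 0.67 for Tpi1, 0.61 for Pkm and 0.45 for Pfkp. In 271 cells of set 2 it was 0.65, 0.64, 0.69, 0.62, 0.50 and 0.36 in the same order. The median gene had 0.02 and 0.04, over 3135 and 2982 genes. Hk2 had 0.03 and -0.05, with 42.8% and 83.2% of genes above it. In G2 and mitosis the values were 0.46 for Aldoa and 0.45 for Pgk1 in set 1, and 0.66 and 0.67 in set 2. In enterocytes Aldoa (0.50 and 0.51) and Pgk1 (0.51 and 0.46) stood above the median gene (0.10 and 0.05) in both sets. Tpi1 had 0.04 in set 1 and 0.37 in set 2, and Pkm 0.52 and 0.07, so that Tpi1 lay below the median gene in set 1 and Pkm near it in set 2. Cells share a library and sparse counts lower such values, so no order between genes of different level is read from them.

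Some members have near copies in the genome. Aldoa, Tpi1, Pgk1, Pkm and Ldha have processed pseudogenes in the mouse genome, and how reads that fit several copies were counted is not given in the sources used here. Their levels are uncertain to that extent in both sets, and the part of such reads was not measured.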

How the data were processed

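Single-cell RNA was measured in mouse small intestinal organoids on the 10x 3′ platform. The deposited values are UMI counts per gene and barcode, whole numbers without normalization. Cell Ranger 3.1.0, bcl2fastq 2.20.0 and STAR 2.7.3a are named per the submitters' processing notes; build and annotation are not given in the sources used here. The members and lists were chosen with earlier results of these data known, and gate thresholds after their values were seen. A few listed genes are not reported here and were left out of lists and shares.

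Counts were summed over the cells of a class and set and scaled to all their UMIs (CPM). Kept cells summed to 61628537 UMIs in set 1 and 51111519 in set 2. Gates needed at least 25 (enteroendocrine), 40 (enterocyte, and goblet plus Paneth) or 2.5 (revival-like) marker UMIs per 10000, with at least 10 marker UMIs. Of the rest, 10 (G2 and mitosis), then 4 (S phase), then 4 (crypt stem) were needed. Neurog3 cells had at least 2 and Tph1 cells at least 5 per 10000. Within 1.5-fold above the cut lay 8 and 11 enteroendocrine, 18 and 10 enterocyte, 326 and 174 G2 and mitosis, 75 and 78 S phase, and 58 and 99 crypt stem gate cells. So did 8 and 1 goblet or Paneth and 1 and 7 revival-like cells. The median of the summed revival-like markers in the revival-like class was 29.8 per 10000 in set 1 and 5.23 in set 2. Scrublet called 7 cells in each set, too few to rely on, and no cell was removed by it.

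All 10 members are named, and so are the 5 genes most like them. Of the listed genes that were called or are isozymes of a member, only some are named. No test across samples was possible. Poisson counts were simulated for the enteroendocrine comparison of the sets, over 9933 genes. On these the call found 85.0% of genes changed 2-fold, 93.0% of those changed 3-fold and 0.299% of 9711 unchanged genes. The simulated counts held counting error only, without variation between cells or libraries. These shares therefore do not give the error of the calls on the real counts. Alternatives were other filters, gates, pseudocounts and scalings. Scripts ran in Python with numpy, scipy and pandas.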

Additional observations from a re-analysis of the deposited data

Results flagged for a closer look

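Barcodes above the limit of 20% mitochondrial UMIs entered no comparison but held members' RNA, which brought them here. As CPM of non-mitochondrial UMIs, the 10 members summed to 5100.0 in kept cells of set 1 and 4588 in those of set 2. In barcodes with over 20 to 50% mitochondrial UMIs the sum was 5914 (2467 barcodes, set 1) and 4915 (1886 barcodes, set 2). Above 50% it was 5513 (3643 barcodes) and 4189.7 (1785 barcodes). Set 1 was higher in each of the 3 groups of barcodes. Whether these barcodes are cells was not tested.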

How the results depend on the processing

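The set contrast in enteroendocrine cells kept between 5 and 7 members lower under 16 alternatives (6 as reported), and Hk2 was the member called higher except in Neurog3 cells alone, where the count was 0. For Hk1 the log2 ratio there reversed to 0.20 in the cells with neither Neurog3 nor Tph1, and it was called lower in Tph1 cells alone. Over all kept cells 0 members were called higher with a pseudocount of 10 CPM, where Hk2 fell just under 1.5-fold (log2 ratio 0.57). Against remaining cells, the count of members lower in enteroendocrine cells of set 1 (1, Ldha) became 0 without a mitochondrial limit, with a limit of 10%, with at least 10000 UMIs, with gates halved, with a pseudocount of 10 CPM and when each cell counted equally. It became 2 when scaled without mitochondrial and ribosomal protein UMIs or centred on the median gene, and in set 2 it went from 2 to 4 under both. Members higher in enterocytes of set 1 (2) became 0 with gates halved, 0 with the scaling without mitochondrial and ribosomal protein UMIs and 4 when centred. The cause of these shifts was not tested. Of the values for single genes, 729 moved by less than their counting interval and 190 by more. No paired analysis was possible because the 2 samples hold 1 matrix with no replicate numbers, and no replicate could be left out. Depth limits Hk1 outside enteroendocrine cells, Hk2 in enterocytes (10 and 23 UMIs) and the 2 classes under 50 cells.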
